A study of Mus musculus with 12 samples.

Results

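Eph receptors and their ephrin ligands were followed in the small intestine of 6 mutant mice, described as villinCre;Shp2fl, and 6 control mice. The genes examined were the 10 rows of the expression table named EPHB1, EPHB2, EPHB3, EPHB4, EPHB6, EPHA2, EPHA4, EFNB1, EFNB2 and EFNA1, out of 18090 gene rows. They were picked by name as Wnt-driven receptors and ligands that sort crypt and villus cells, and all 10 had a row. In the mutants a floxed allele of Shp2 (gene Ptpn11), a phosphatase that relays receptor signals to RAS and ERK, meets Cre made under the villin promoter, so that recombination is directed at the epithelium and the other cells of the gut wall keep the gene. The genotype of the controls is given only as control, all mice were of a mixed C57/BL6;129Ola background, and every sample carries the label P6. RNA was taken from undissected proximal small bowel and hybridised to a 1-colour Illumina array, with 1 array for each mouse.

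Ephs are receptor tyrosine kinases, and ephrins are membrane-bound ligands, so both act where cells touch. B-class ephrins span the membrane and A-class ephrins are held by a lipid anchor, and a ligand can signal back into the cell that carries it. In the intestine, Wnt signalling is known to keep EphB2 and EphB3 high in crypt cells and ephrin-B1 and ephrin-B2 low there, and the repulsion between receptor-bearing and ligand-bearing cells holds proliferating cells in the crypt and Paneth cells at its base.

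Levels are array intensities as deposited, in arbitrary units, with the mean ± SD of 6 mice for each group. Log2 differences are mutant minus control with their SE, from limma fitted to all 18090 rows after an offset of 50 was added, with Benjamini-Hochberg adjustment over all rows and a threshold of 0.05. Intensities up to 27.8, the size of the most negative value in the table, were taken as noise. The epithelial and endothelial identity of the tissue could be read from VIL1 and CDH1 and from PECAM1 and CDH5, whose means lay above that limit in both groups. Correlations between arrays were 0.983 to 0.994 inside a group and 0.973 to 0.987 across groups. Mutant 1 and control 4 stood apart in pancreatic acinar transcripts, with list sums of 57967 and 99689 against 2375 to 14729 in the other 10 mice, and results were therefore repeated without both. PTPN11 itself read 1498 ± 118 in mutants and 1288 ± 124 in controls (log2 difference 0.21, limma adjusted p = 0.0763, and 0.043 without control 3), and since the position of its probe is not given, it does not check the labels.

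Of the 10 genes, 3 were lower in the mutants and none was higher, with 4 lower and 0 higher at an unadjusted limma p under 0.05. The receptors EPHB2 and EPHB1 and the ligand EFNA1 passed the threshold. Over all rows 9.19% passed, with 4.48% lower and 4.71% higher. The median log2 difference of the 10 genes was -0.06, and that of all rows was -0.01. In 2 of the 10 the groups did not overlap, as in 4.69% of all rows in either direction. Above the noise limit in at least 1 group mean were 8 of the 10, while EPHB3 and EPHB6 lay under it in all 12 mice. In a whole piece of gut, fewer cells of a type and less RNA per cell cannot be told apart.

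**Figure D1:**
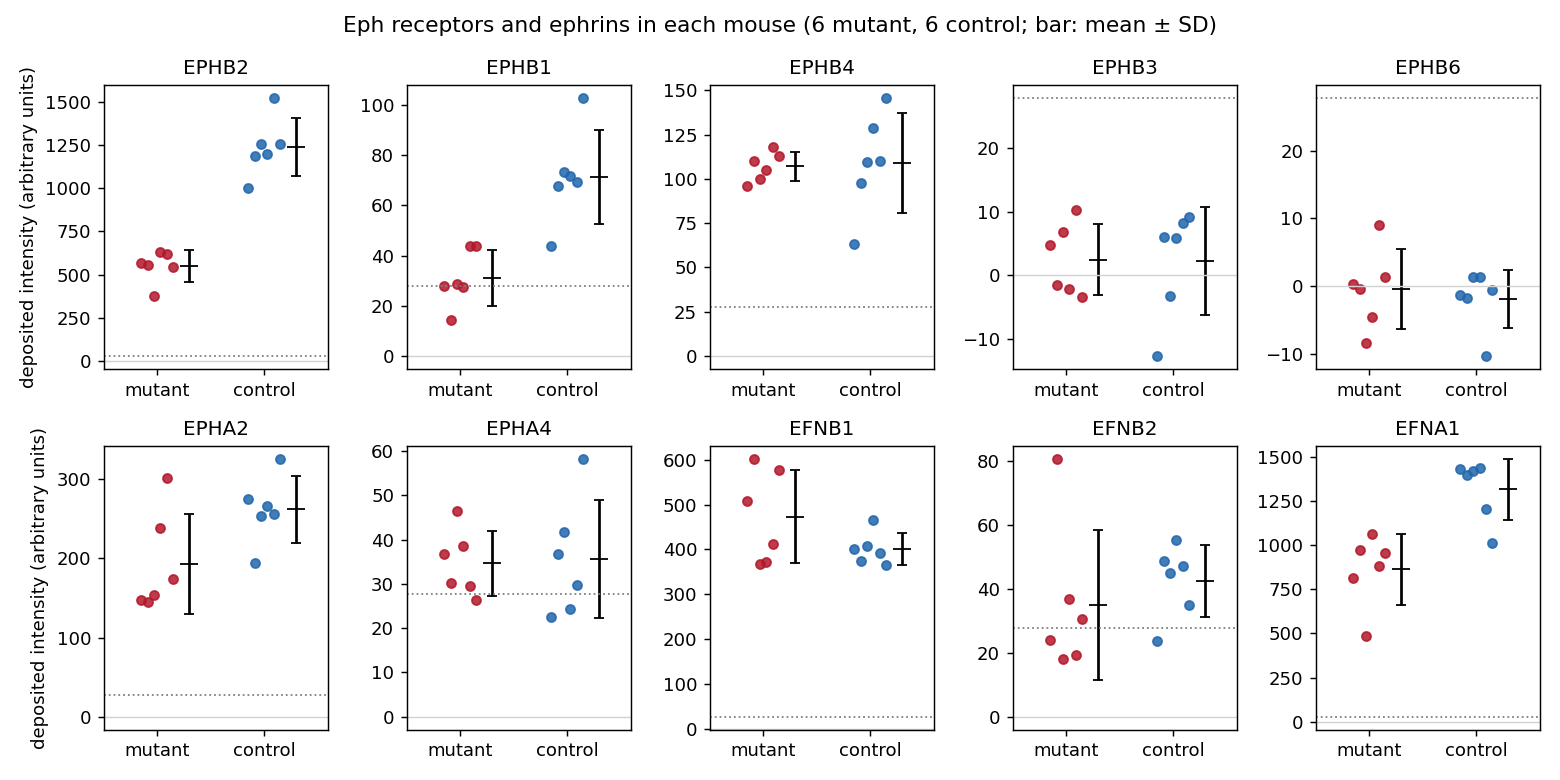
Deposited intensity (arbitrary units, a separate linear scale in each panel) of the 10 genes in each of 6 mutant (red) and 6 control (blue) mice, with mean ± SD as black bars and the noise limit of 27.8 as a dotted line. EPHB2 and EPHB1 show no overlap between groups, EFNA1 shows a small overlap, and EPHB3 and EPHB6 lie under the limit.

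EPHB2, the crypt receptor that guides cell position along the crypt axis, had the largest fitted difference of the 10 genes. It read 568.2, 554.9, 377.7, 633.2, 621.3 and 545.7 in mutants 1 to 6, and 1003.9, 1185.4, 1257.4, 1196.9, 1525.1 and 1257.7 in controls 1 to 6. The highest mutant was far below the lowest control, so the groups did not overlap, as was the case for 2.21% of all rows in this direction. The means were 550.2 ± 91.7 in mutants and 1238 ± 169 in controls, a level 2.25-fold lower in mutants. The fitted log2 difference was -1.07 (SE 0.11, 95% interval -1.31 to -0.83, limma adjusted p = 5.54e-05). Only 0.166% of all rows had a log2 difference as low or lower, and EPHB2 ranked 30 from the bottom. The exact permutation test of the intensities over all ways to assign the 12 mice to the groups gave p = 0.00216 (two-sided), the smallest it can give. The value held without any single mouse, at -1.13 to -0.98.

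EPHB1, a receptor of the same class best known from the nervous system, was also lower, at dim levels. In mutants 1 to 6 it read 28.0, 14.4, 28.8, 27.5, 43.9 and 43.8, and in controls 1 to 6 it read 44.0, 67.6, 73.2, 71.6, 69.3 and 102.9. The groups did not overlap, but only just: control 1 lay next to mutants 5 and 6, and mutants 2 and 4 were under the noise limit. The means were 31.1 ± 11.2 in mutants and 71.4 ± 18.8 in controls, 2.3-fold lower in mutants on the deposited scale. The offset shrinks such a dim difference, and the fitted log2 difference was -0.47 (SE 0.09, limma adjusted p = 0.00632). Without background correction, with values under 16 set to 16, it was -1.21 (limma adjusted p = 0.0261). The exact permutation test again gave its smallest p, 0.00216 (two-sided).

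The other class B receptors gave no call. EPHB4, known as the venous receptor of blood vessels, read 107.1 ± 8.2 in mutants and 109.2 ± 28.2 in controls, a log2 difference of 0.00 with a 95% interval of -0.20 to 0.20 (limma adjusted p = 0.998). All 6 mutants, at 96.2 to 118.0 with a median of 107.6, lay inside the control range of 63.2 to 145.8, whose median was 109.8. EPHB3, which shares the crypt with EPHB2 and is known for placing Paneth cells, read -3.4 to 10.3 in mutants and -12.6 to 9.1 in controls. EPHB6, a receptor without kinase activity, read -8.4 to 9.1 in mutants and -10.3 to 1.3 in controls. All of these values are under the noise limit, so neither gene has a measured level here and no fold is given.

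Of the class A receptors, EPHA2, an epithelial receptor of cell junctions, was lower in 5 of 6 mutants than the control mean without passing the threshold. It read 147.2, 144.9, 154.1, 237.9, 301.4 and 173.3 in mutants 1 to 6, and 275.5, 193.9, 253.9, 265.9, 255.8 and 325.9 in controls 1 to 6. Mutant 5 stood inside the control range, as did mutant 4, whereas the other 4 were below every control. The means were 193.1 ± 63.4 in mutants and 261.8 ± 42.5 in controls, with a log2 difference of -0.35 (SE 0.14, 95% interval -0.65 to -0.06, limma adjusted p = 0.135). The exact permutation test gave p = 0.0541 (two-sided). Mutant 5 decided the call, since without it the difference was -0.46 and passed (limma adjusted p = 0.0248). EPHA4, a receptor that binds ephrins of both classes, was at 34.6 ± 7.4 in mutants and 35.6 ± 13.3 in controls, close to the noise limit, with a 95% interval of -0.17 to 0.17 on the log2 scale. Its lowest, median and highest values were 26.3, 33.5 and 46.4 in mutants and 22.6, 33.3 and 58.3 in controls, so the mutants lay inside the control range.

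Among the ligands, EFNA1, the A-class ephrin that binds EPHA2, was lower in the mutants. Mutants 1 to 6 read 813.8, 973.2, 485.2, 1062.1, 884.5 and 958.3, and controls 1 to 6 read 1433.0, 1396.2, 1421.8, 1437.9, 1204.9 and 1013.1. Controls 1 to 4 lay close together at the top, and the groups overlapped through mutant 4, which read above control 6. The means were 862.9 ± 203.2 in mutants and 1318 ± 173 in controls, 1.53-fold lower in mutants, with a log2 difference of -0.60 (SE 0.15, 95% interval -0.92 to -0.27, limma adjusted p = 0.0225). The exact permutation test gave p = 0.00433 (two-sided). The call was the least stable of the 3: it ended without control 3 (limma adjusted p = 0.0518), without mutant 1 and control 4 together (0.0758) and without background correction (0.0715), at differences of -0.57, -0.56 and -0.64.

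The B-class ligands did not pass. EFNB1, the transmembrane ligand that is opposed to EPHB2 in the crypt, read 507.4, 602.3, 367.0, 373.2, 411.2 and 577.3 in mutants 1 to 6, and 400.4, 374.5, 408.8, 464.8, 393.0 and 366.2 in controls 1 to 6. Mutants 1, 2 and 6 were above every control and the other 3 were inside the control range. The means were 473.1 ± 103.7 in mutants and 401.3 ± 35.0 in controls (log2 difference 0.18, 95% interval -0.05 to 0.42, limma adjusted p = 0.368). EFNB2, also known as a marker of arteries, read 24.1, 80.9, 18.2, 36.9, 19.2 and 30.6 in mutants 1 to 6, and 23.7, 48.7, 44.9, 55.4, 47.2 and 35.1 in controls 1 to 6. Only 3 mutants and 5 controls were above the noise limit, and mutant 2 held the highest value of all (log2 difference -0.11, 95% interval -0.36 to 0.14, limma adjusted p = 0.679).

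Whether EPHB2 changed more than the other genes was tested on the difference itself, by subtracting each gene's log2 value from that of EPHB2 in the same mouse. Comparisons were made with 9 genes, and each was tested with the same exact permutation test (two-sided, not adjusted). EPHB2 had been chosen for this with its own result known, a large difference without overlap, so small p-values were likely beforehand. Against EFNB1, the receptor minus ligand value was 0.20 ± 0.32 in mutants and 1.46 ± 0.23 in controls, a shift of -1.26, with all 6 mutants below every control (exact p = 0.00216). The shift was -1.07 against EPHB4, -0.72 against EPHA2, -1.07 against EPHA4 and -0.96 against EFNB2, each at the same smallest exact p and each with no overlap. EPHB4 and EPHA4 had log2 differences of 0.0011 and -0.0017 themselves, so their shifts restate the difference of EPHB2 alone. EPHA4 and EFNB2 lay near the noise limit, where the offset shrinks their own differences. Without background correction the shift was -0.75 against EFNB2 (exact p = 0.0303), -0.69 against EPHA2 (exact p = 0.013) and -1.20 against EPHA4 (exact p = 0.00216). Against EFNA1, which was lower too, the shift was -0.48, 3 of 6 mutants were below every control, and the exact p was 0.00866. Against EPHB1 it was -0.60 (exact p = 0.00216), but it turned to 0.04 without background correction (exact p = 0.892), so the order of these 2 receptors depends on how dim values are treated. The shifts against EPHB3 and EPHB6, -1.08 and -1.10, set EPHB2 against genes within the noise limit.

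**Figure D2:**
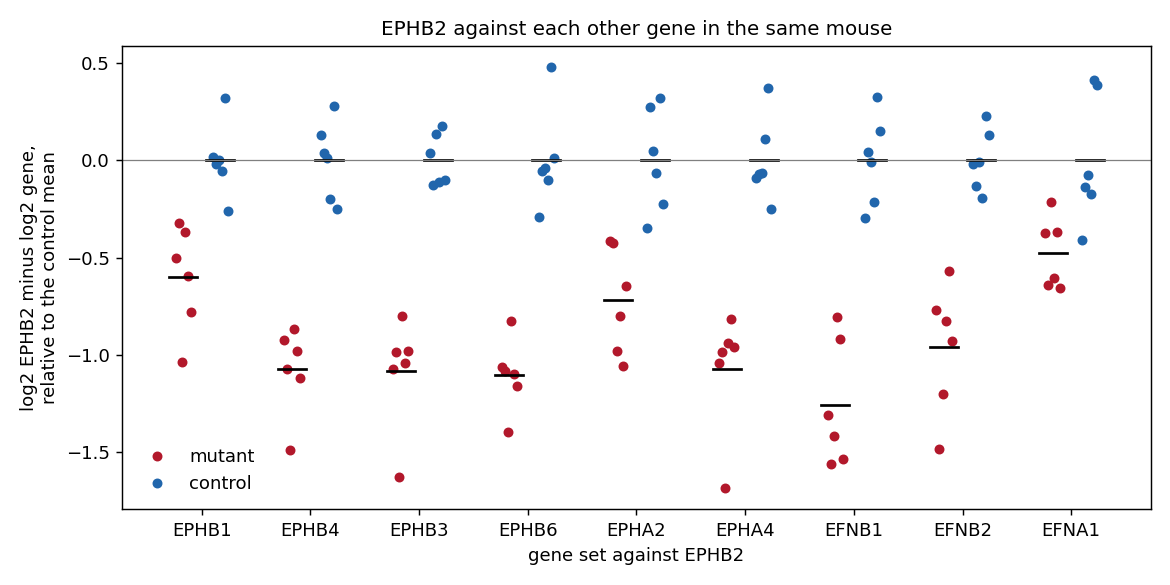
Log2 value of EPHB2 minus that of each other gene in the same mouse, shifted so that the control mean is 0, for 6 mutant (red, left) and 6 control (blue, right) mice, with group means as black lines. Mutants lie below every control for all genes except EFNA1, where 3 of 6 mutants do.

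The promoters of the genes that were lower, and of EPHA2, are shown because the crypt receptors are known targets of TCF factors. EPHA2 itself did not pass the threshold, and its window is shown for the motif it holds. Sequences are the 250 bases before the annotated start, on the gene's strand, from RefSeq on GRCm38.p6, where all 10 genes matched by symbol. Capitals mark the letters CTTTGAA or CTTTGAT, which are forms of the TCF motif, or the E-box CAGGTG, searched on both strands with no overlap between them.
Ephb2, chr4:136836013-136836262, minus strand: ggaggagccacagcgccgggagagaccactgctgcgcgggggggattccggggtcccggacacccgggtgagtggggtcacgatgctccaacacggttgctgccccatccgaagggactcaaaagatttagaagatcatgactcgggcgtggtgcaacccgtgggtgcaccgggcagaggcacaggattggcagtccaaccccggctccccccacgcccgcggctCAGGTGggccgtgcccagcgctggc
Ephb1, chr9:102354694-102354943, minus strand: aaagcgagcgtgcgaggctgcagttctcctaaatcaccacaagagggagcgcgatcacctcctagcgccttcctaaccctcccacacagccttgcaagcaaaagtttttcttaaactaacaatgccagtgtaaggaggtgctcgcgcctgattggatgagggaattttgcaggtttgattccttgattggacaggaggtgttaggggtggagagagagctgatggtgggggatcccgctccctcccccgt
Efna1, first start, chr3:89280952-89281201, minus strand: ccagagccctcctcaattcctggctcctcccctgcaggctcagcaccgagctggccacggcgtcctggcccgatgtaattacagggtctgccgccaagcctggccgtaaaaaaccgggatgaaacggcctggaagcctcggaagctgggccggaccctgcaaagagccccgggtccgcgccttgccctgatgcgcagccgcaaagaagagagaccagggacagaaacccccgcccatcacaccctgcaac
Efna1, second start, chr3:89279646-89279895, minus strand: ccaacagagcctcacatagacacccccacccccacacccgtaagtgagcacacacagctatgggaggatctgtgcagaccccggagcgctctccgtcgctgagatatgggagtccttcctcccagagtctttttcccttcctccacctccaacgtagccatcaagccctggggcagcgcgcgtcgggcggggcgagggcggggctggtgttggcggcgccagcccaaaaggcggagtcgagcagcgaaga
Epha2, chr4:141300971-141301220, plus strand: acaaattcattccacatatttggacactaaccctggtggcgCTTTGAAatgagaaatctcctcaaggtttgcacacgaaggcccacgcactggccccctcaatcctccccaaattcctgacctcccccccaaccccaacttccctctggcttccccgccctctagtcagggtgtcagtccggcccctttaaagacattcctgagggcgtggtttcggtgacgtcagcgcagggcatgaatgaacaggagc
The Epha2 window held 1 CTTTGAA, beginning 209 bases before the start. It was the only TCF form in the 11 windows of the 10 genes, so those of Ephb2 and Ephb3 held none. The Ephb2 window held 1 CAGGTG, beginning 25 bases before the start, and the window of Efnb2, which is not shown, also held 1, beginning 167 bases before the start. A TCF form was found in 7.48% and CAGGTG in 17.2% of all 32851 windows of this length. The windows of Ephb1 and Efna1 held none of these letters, which says nothing about sites elsewhere.

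The rest of the family, 12 further Eph and ephrin genes, gave 1 call, or 8.33%, near the 9.19% called over all rows. EFNA4, another A-class ephrin, rose. It read 130.4, 100.5, 188.5, 80.6, 113.3 and 117.2 in mutants 1 to 6, and 39.7, 67.1, 54.5, 71.7, 64.8 and 69.0 in controls 1 to 6. Every mutant was above every control, with means of 121.8 ± 36.8 in mutants and 61.1 ± 12.1 in controls, 1.99-fold higher in mutants (log2 difference 0.53, SE 0.11, limma adjusted p = 0.00672). EFNA1 and EFNA4 thus moved in opposite directions. The log2 value of EFNA1 minus that of EFNA4 shifted by -1.13, with all 6 mutants below every control (exact permutation p = 0.00216, two-sided). This pair was chosen after both values were seen, with EFNA4 already higher without overlap and EFNA1 already called lower. The outcome was therefore largely set beforehand, and the test adds no further evidence. EPHA1, an epithelial receptor, read 350.5 ± 88.9 in mutants and 442.2 ± 37.0 in controls (log2 difference -0.30, limma adjusted p = 0.128), and 5 of 6 mutants, all but mutant 4, were below every control. Without mutant 4 the EPHA1 difference was -0.40 and passed (limma adjusted p = 0.0105). EFNA5 read 701.0 ± 160.0 in mutants and 634.9 ± 82.4 in controls (limma adjusted p = 0.663). Among the 12, 6 were within the noise limit in both group means, and the median log2 difference was 0.02.

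**Figure D3:**
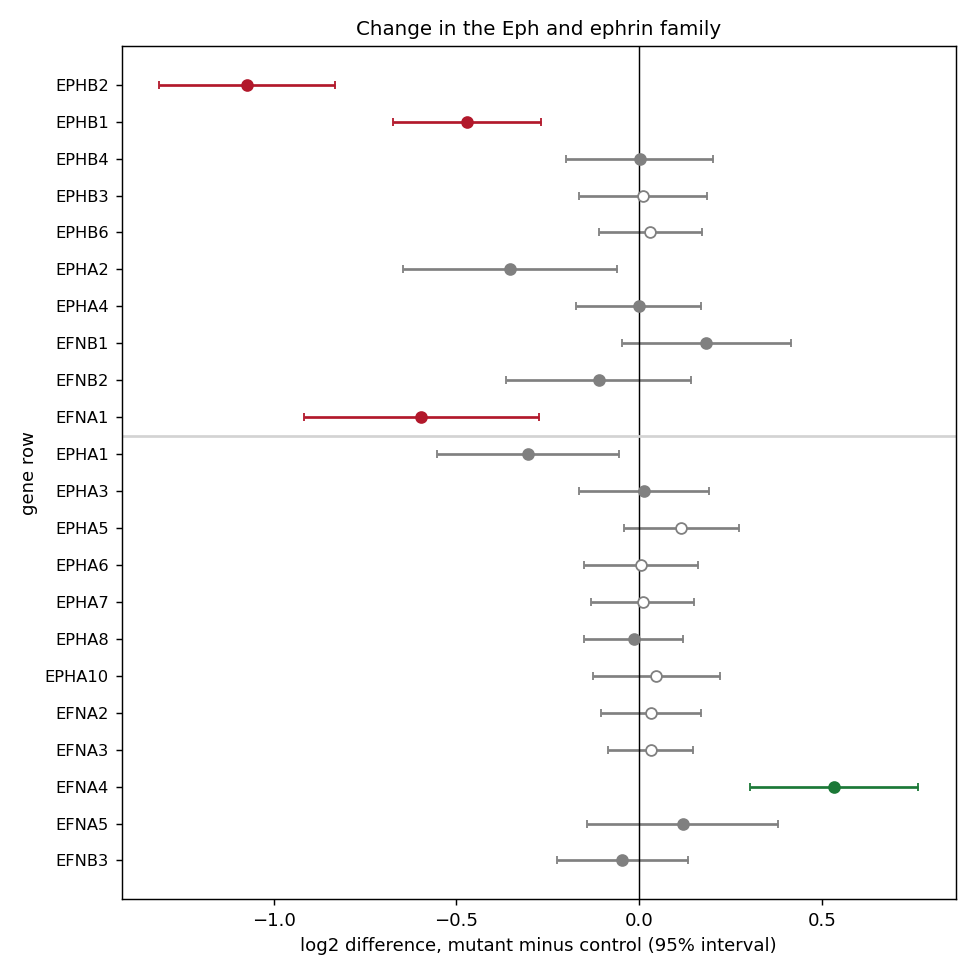
Log2 difference (mutant minus control) with its 95% interval for the 10 genes (above the grey line) and the 12 further family members (below it). Red marks lower, green higher and grey uncalled, and open points mark genes with both means within the noise limit. EPHB2, EPHB1 and EFNA1 are lower and EFNA4 is higher.

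Among genes that act with Eph receptors and ephrins, 1 of 34 partners with a row was higher and 2 were lower, a share near the 9.19% called over all rows. Of the 34, 10 were within the noise limit in both group means. The median log2 difference of the 34 was -0.07. VAV3, a signalling protein that Eph receptors engage, rose to 278.8 ± 43.5 in mutants, against 138.2 ± 23.8 in controls (log2 difference 0.74, limma adjusted p = 0.000235). ARHGEF15, known as ephexin-5, was lower at 179.6 ± 22.9 in mutants and 234.3 ± 16.9 in controls (log2 difference -0.29, limma adjusted p = 0.0151). SDCBP, or syntenin, a PDZ protein that binds the tails of B ephrins, read 3452 ± 265 in mutants and 4404 ± 599 in controls (limma adjusted p = 0.0243), a call that ended without mutant 1, 3 or 6 or control 3, without mutant 1 and control 4 together and without background correction. ADAM10, the protease that cuts ephrins, was within the noise limit in both groups.

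Wnt target genes of the crypt, the class to which EPHB2 belongs, moved in both directions. Of 23 with a row, 4 were higher (17.4%) and 2 were lower (8.7%), beside 4.71% higher and 4.48% lower over all rows. Of the 23, 8 were within the noise limit in both group means. The 2 lower genes were EPHB2, already counted among the 10 genes, and NOTUM, a secreted Wnt inhibitor. NOTUM read 13.4 ± 10.1 in mutants and 89.3 ± 24.3 in controls. All 6 mutants were within the noise limit for NOTUM, so its level was at least 3.12-fold lower in mutants (geometric mean of the controls over the limit), and its fitted log2 difference of -0.92 (limma adjusted p = 7.74e-05) depends on the offset. The higher genes were SP5, LGR5, the ion cotransporter SLC12A2 and the cyclin CCND1, with log2 differences of 1.64, 0.71, 0.48 and 0.33. SLC12A2, which is abundant in crypts, read 3867 ± 757 in mutants and 2711 ± 323 in controls (limma adjusted p = 0.0276). The calls of SLC12A2 and CCND1 ended when any of 6 and of 9 single mice was left out, and 2 to 5 of the list were higher without single mice. The median log2 difference of the list was 0.04. In the stem cell list 3 of 14 (21.4%) were higher and none was lower: LGR5, OLFM4 at 0.72 and LRIG1 at 0.51 on the log2 scale. The calls of OLFM4 and LRIG1 ended without any of 8 and of 7 single mice, so that the count was 1 to 4. In the proliferation list 5 of 16 (31.2%) were higher and 1 (6.25%) was lower, with 2 to 7 higher without single mice. Among the called genes, the largest log2 differences were 0.65 for BIRC5, 0.48 for CDCA3, 0.46 for PLK1 and -0.37 for MCM2. In the Paneth cell list 12 of 17 (70.6%) were higher and none was lower. Among the higher were DEFCR5, DEFCR26 and LYZ1, with log2 differences of 5.98, 5.19 and 4.97. REG3G was within the noise limit in all 6 controls and at least 171-fold higher in mutants by the same kind of bound.

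**Figure D4:**
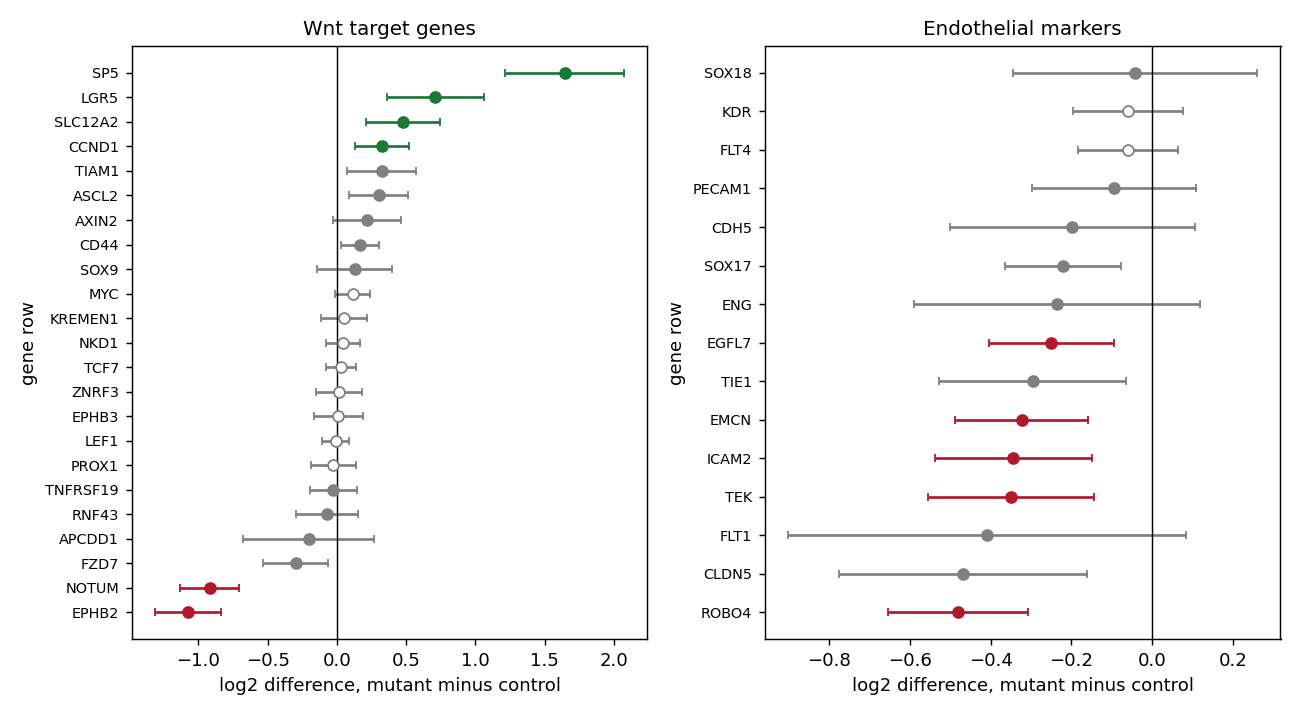
Log2 difference (mutant minus control) with its 95% interval for each gene of the Wnt target list (left) and the endothelial list (right), ordered by size, with called genes in red (lower) or green (higher) and open points for genes with both means within the noise limit. EPHB2 stands at -1.07 and NOTUM, within the noise limit in mutants, at -0.92 on this scale, which shrinks dim genes, and the endothelial genes all have values below 0.

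Markers of cell types that can carry Eph receptors or ephrins were read alongside. Blood vessels are known to carry EPHB4, EFNB2 and EFNA1. The endothelial list had 5 of 15 genes lower (33.3%, beside 4.48% of all rows) and none higher. Its median log2 difference was -0.25. Its summed intensity was 5985 to 7028 in mutants and 7080 to 9054 in controls, without overlap, and 2 of its genes were within the noise limit in both groups. ROBO4 read 575.8 ± 44.7 in mutants and 839.3 ± 109.1 in controls (log2 difference -0.48, limma adjusted p = 0.00205). TEK, ICAM2, EMCN and EGFL7 were the other calls, and those of TEK, ICAM2 and EMCN ended without mutant 1 and control 4. Single mice also ended the calls of TEK (7 of 12 mice), ICAM2 (6) and EGFL7 (10), so that 2 to 6 of the list were lower without single mice, against 8 with array weights. The defining genes PECAM1 and CDH5 had log2 differences of -0.09 and -0.20 and did not pass. The part of endothelial RNA in the values of EPHB1, EPHB2 and EFNA1 was not tested.

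The epithelial list had 5 of 14 genes higher (35.7%, beside 4.71% of all rows) and none lower. Its summed intensities were 59909 to 67193 in mutants and 56401 to 63064 in controls. KRT19 was the largest change, at 2607 ± 593 in mutants and 1311 ± 241 in controls, and VIL1 read 8714 ± 990 in mutants and 9101 ± 1121 in controls (log2 difference -0.06, limma adjusted p = 0.801). CLDN3, TJP3 and ELF3 were higher by 0.57, 0.56 and 0.50 on the log2 scale, and the summed ranges of the groups overlapped. KRT18 went the other way without passing, at 1344 ± 216 in mutants and 1738 ± 291 in controls (log2 difference -0.35, limma adjusted p = 0.0860). Of the remaining lists, the villus list had 4 of 14 higher (28.6%) and none lower. The 4 were MYO1A, MEP1B, ANPEP and DPP4, with log2 differences of 1.04, 0.77, 0.53 and 0.44. In this list 4 of the 14 were within the noise limit in both group means. MEP1A went the other way without passing, at 1090 ± 198 in mutants and 1536 ± 325 in controls (log2 difference -0.46, limma adjusted p = 0.0584). Fibroblasts had 1 of 14 higher (LUM, 0.59) and none lower, smooth muscle 1 of 11 higher (CNN1, 0.31) and none lower, and neurons and glia none of 13 higher and 1 lower (S100B, at 0.42 ± 5.28 in mutants, within the noise limit, and 28.0 ± 11.1 in controls). In the fibroblast, smooth muscle, and neuron and glia lists the shares called (7.14%, 9.09% and 7.69%) were near the 9.19% over all rows. The calls of ANPEP and CNN1 ended without any of 7 and of 8 single mice, and that of LUM without mutant 1. Leukocyte genes had 5 of 15 higher (33.3%) and 1 lower (6.67%, beside 4.48% of all rows). Among the higher, log2 differences were 4.72 for S100A8, 3.73 for S100A9, 1.61 for RETNLG and 1.08 for CD14. The lower gene was CSF1R, a receptor of macrophages, at 769 ± 195 in mutants and 1192 ± 211 in controls (log2 difference -0.60, limma adjusted p = 0.0254), a call that ended without mutant 3 or control 1, 2 or 3 and without background correction. PTPRC, the general leukocyte marker, was within the noise limit in both groups. The summed leukocyte intensities were 5635 to 14430 in mutants and 2700 to 4248 in controls, of which S100A8 alone averaged 5650 in mutants and 131 in controls. Acinar genes had 0 of 16 called by limma (1 lower and 0 higher at an unadjusted p under 0.05), with 1 higher and 2 lower when mutant 1 and control 4 were left out. The part of these cell types in the results above was not tested.

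The rows whose variation between mice was most like that of a called gene were sought among 18089 others, after each group's own mean had been subtracted, over 12 mice. For EPHB2 the closest was PFN1, the actin-binding profilin, with Pearson r of 0.92 and Spearman rho of 0.82, followed by UCHL5IP and AKR1C20, which lay within the noise limit. PFN1 did not share the difference between groups, at 2645 ± 211 in mutants and 2403 ± 201 in controls (limma adjusted p = 0.298). For EPHB1 they were MPST (r 0.96), IL20RB (r 0.93) and DOCK1 (r 0.93), and for EFNA1 they were GPR89 (r 0.94), PIGYL (r 0.92) and HDHD3 (r 0.91). MPST and IL20RB lay near the noise limit, as did EPHB1 in the mutants. MPST was above it in 5 mutants and 1 control, and IL20RB in 6 mutants and 4 controls. None of these 9 rows passed the threshold between groups. They are the highest of many correlations over few mice and are given as a description.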

How the data were processed

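Per the labels, biotin-labelled cRNA from 12 mice was read on an Illumina array, and the submitters' processing notes name GenomeStudio and Partek without versions. The deposited file gave linear intensities, 1 for each gene symbol and mouse. Of them, 22.5% lay below 0 and the column medians were 41.8 to 43.4, so background had been subtracted and the arrays normalized before deposit. The sources used here give neither array version nor genome build. Another table, with 24 columns headed by no sample label, was not used.

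The deposited intensities were passed through normexp (offset 50), then quantile normalization and log2, and fitted with limma 3.58.1 in R 4.3.3 (lmFit, eBayes, group as the only term, all rows). Quantile normalization hides a shift of all genes together, and the offset shrinks differences of dim genes. Single values were tested with exact permutations of the mice. The number of arrays limits the precision. The labels call the samples biological replicates. The fit and the permutation test were tested on simulated data.

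The 10 genes and the gene lists were chosen with earlier results of these data known. Named were all 10 genes, called list members (up to 4 a list, by size) and the 3 rows most like each called gene. EPHA1, EFNA5, PECAM1, CDH5, CDH1, ADAM10, EGFL7, SLC12A2, CCND1, CSF1R, PTPRC, KRT18 and MEP1A were named after their values were seen. Alternatives were another offset, no background correction, no quantile step, other variance models, array weights, a filter on dim rows, a replicate block and leaving out mice.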

Additional observations from a re-analysis of the deposited data

Results flagged for a closer look

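Of 20 sets of 6 values (10 genes in mutants and in controls), 3 held a mouse far from the others by Dixon's criterion, where chance gives about 1 in 20. EPHB2 read 377.7 in mutant 3, below the next lowest mutant at 545.7. EFNB2 read 80.9 in mutant 2, above the next highest mutant at 36.9. EPHB6 read -10.3 in control 5, within the noise limit.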

How the results depend on the processing

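EPHB1 and EPHB2 stayed lower and past the threshold in all 20 alternatives run for each, with log2 differences of -1.21 to -0.41 and -1.17 to -0.98. EFNA1 stayed lower in 20 and lost its call in 3, as given above. The count of lower genes was 2 to 4 (0 higher) when single mice were left out, and EFNB1 and EFNB2 kept their signs uncalled. Without background correction 1079 of all rows were called, against 1663, and 1247 to 1694 without single mice. The cause was not tested. Signs turned for uncalled values near 0. EPHA4 was 0.0014 with an offset of 16 and 0.029 without background correction, EPHB4 was -0.0027 without the quantile step and -0.031 with array weights, EPHB3 was -0.0027 with array weights, and VIL1 was 0.0044 without mutant 1 and control 4. EPHB2 minus EPHB1 was 0.040 without background correction, the only one of 144 such shifts under alternatives that could move them to turn or to lose its call. The 144 include the shifts against EPHB3 and EPHB6 with the floor of 16. There these genes are constant, and the shift of -1.17 is the difference of EPHB2 alone. Without single mice EPHA4 was -0.039 to 0.056, EPHB4 -0.080 to 0.059, EPHB3 -0.052 to 0.039, EPHB6 -0.0074 to 0.064 and HDHD3 -0.013 to 0.15. ADAM10 was -0.049 without background correction and -0.010 to 0.064 without single mice. Of 1153 values of 58 other named genes under alternatives, 1034 kept direction and side of the threshold, 109 lost a call, 3 gained one (EPHA1 and PTPN11) and 7 turned. KRT18 and MEP1A were not among the 58. With the replicate number as a block 1702 rows and 3 lower genes were called, and no call of the 10 genes changed, while CCND1 and LRIG1 lost theirs and PTPN11 gained one. The EPHB2 shifts had no block fit. Deviations of same-numbered mice correlated at -0.109 to 0.266. Differently numbered mice were not set beside them, so whether the numbers pair the mice was not tested. EPHB3 and EPHB6 gave no value with the filter on dim rows or with the floor of 16. Genes within the noise limit are limited by signal.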
